A study of Gallus gallus with 6 samples.

Results

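Protein glycosylation enzymes were taken from the deposited liver expression table by gene name, as the GALNT, ST3GAL, ST6GAL, ST8SIA, B3GNT, B3GALT, B4GALT, MGAT, FUT and ALG families together with WBSCR17 and the oligosaccharyltransferase subunits RPN1, RPN2, DDOST, STT3A, STT3B, DAD1 and OSTC. The names matched 80 of the 14078 genes, under 79 symbols because MGAT4C stands on 2 gene IDs. Of these, 27 were grouped as N-linked and 21 as O-linked. The other 32 were enzymes of glycolipids or the proteoglycan linker and a mixed group of extension and capping enzymes. The mixed group took every enzyme on no other list, and counts by class depend on this grouping. The RNA-Seq libraries came from the liver of 3 laying hens slaughtered at 30 weeks (L30) and 3 juvenile hens slaughtered at 20 weeks (L20). All were females of the Lushi chicken breed, named Lushi green shell chicken in the study, with no treatment in the labels, each hen gave 1 library, and age and laying state cannot be told apart in this design.

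N-linked glycans are built on the lipid dolichol at the endoplasmic reticulum by the ALG enzymes, moved as a block onto asparagine by the oligosaccharyltransferase (OST) complex, and then trimmed and branched in the Golgi. Mucin-type O-linked glycans start in the Golgi, where GALNT enzymes place a single N-acetylgalactosamine (GalNAc) on serine or threonine, and are extended sugar by sugar. The liver makes most plasma glycoproteins, and in the laying hen it also secretes the yolk precursors, of which the vitellogenins and apolipoprotein B carry N-linked glycans.

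Values below are FPKM as deposited, fragments per kilobase of exon scaled for depth by a factor per library. They were not scaled to each library's own total. A gene was tested where its mean over the 6 hens was at least 1 FPKM. The test was limma on log2(FPKM + 1) over all 9732 such genes, so that fold changes are on that scale and understate the change of low genes. An unadjusted p of 0.05 or less makes a differentially expressed (DE) gene, and a change is called only where the Benjamini-Hochberg adjusted p over all genes tested is 0.05 or less. With 3 hens against 3 the smallest two-sided p of the exact permutation test is 0.1, reached whenever the groups do not overlap.

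The reads on genes, estimated from the scaled read columns, ranged from 13764709 to 21570333 per hen, with L30 hen 2 the lowest. APOVLDLII and VTG2, which encode yolk proteins, and TPRXL took together 15.6 ± 1.32% of these reads in laying hens and 0.0141 ± 0.0125% in juvenile hens (SD, n = 3 each), so the libraries followed their labels. Median FPKM over genes was 2.97 to 3.32 per hen. Of 6 hepatocyte markers, ALB and AHSG were DE and higher in laying hens and APOA1, FGB and FGA were DE and lower. Shares over all genes tested were 11.0% DE and higher and 11.7% DE and lower. None of the 6 markers passed the adjusted p by limma, and TTR was not a DE gene. Their summed FPKM was 24591 to 33983 in laying and 40796 to 43755 in juvenile hens. The sum mixes 3 markers with a positive and 3 with a negative log2 fold change, so it does not describe hepatocytes as a whole. FGB averaged 6301.7 FPKM in laying and 15643.5 FPKM in juvenile hens, and ALB 14717.2 FPKM in laying and 7379.8 FPKM in juvenile hens. In whole liver, fewer cells of a type and less RNA per cell cannot be told apart. L20 hen 2 was the highest hen in 22 of the 53 glycosylation enzymes tested (41.5%), against 24.9% of all genes tested, and values that moved by more than 1.5 times without it are given both ways for the genes described one by one.

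Laying livers held less mRNA of GALNT2 and B3GNT9 and more of B4GALT6, and these 3 of the 53 enzymes tested passed the adjusted p of 0.05 by limma (5.66%, against 3.40% of all genes tested). Over all genes tested 2.19% passed and were higher and 1.21% passed and were lower. GALNT2 and B3GNT9 also had a ratio of mean FPKM of 0.5 or less, and 2.75% of all genes tested passed with a ratio of at least 2 or at most 0.5. DE genes numbered 8 of 53 (15.1%), against 22.7% of all genes tested, with 3 higher in laying hens (B4GALT6, B4GALT5 and B3GNT2) and 5 lower (GALNT2, GALNT1, MGAT5, B3GNT9 and ST8SIA4). Over all genes tested 11.0% were DE and higher and 11.7% DE and lower. The groups did not overlap in 11 of the 53 enzymes (20.8%), against 30.0% of all genes tested. Laying hens lay above in 4 of these and below in 7, against 14.0% and 16.0% of all genes tested. The share of DE genes among the enzymes was below that of all genes tested, and the median log2 fold change was -0.11 over the 53 enzymes and -0.04 over all genes tested.

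**Figure D1:**
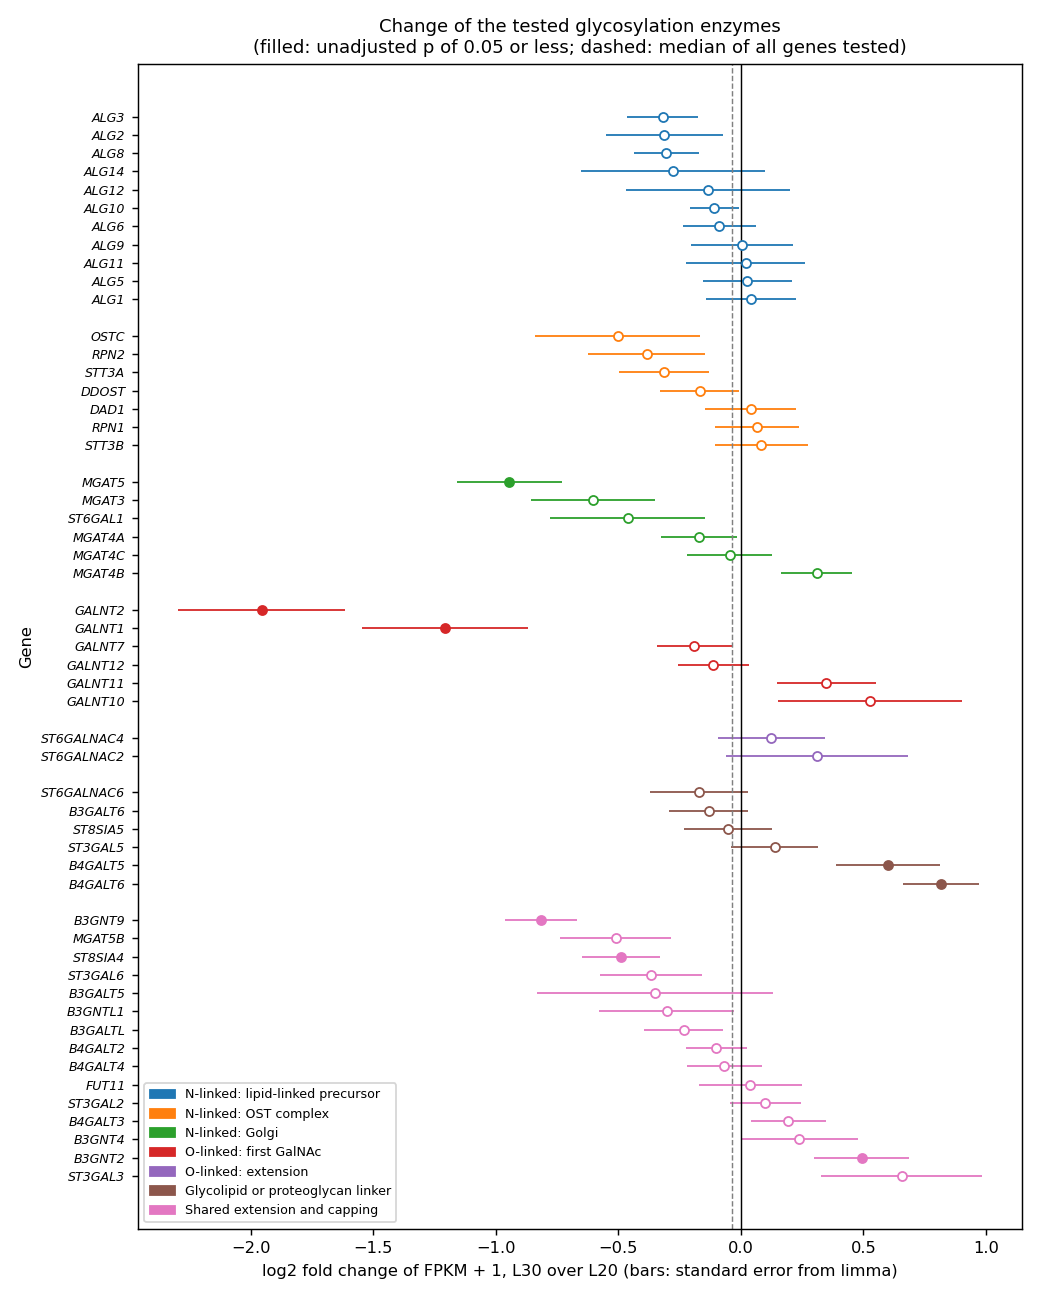
Log2 fold change of FPKM + 1 (x axis, L30 over L20) of the 53 glycosylation enzymes tested, grouped by role, with standard errors from limma and filled points for an unadjusted p of 0.05 or less. GALNT2 at -1.96 and GALNT1 at -1.21 stand farthest to the left, B4GALT6 at 0.82 farthest to the right, and the points of the ALG and OST groups lie between -0.50 and 0.08.

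In the first O-linked step, the 2 enzymes with the highest mean over the 6 hens, GALNT1 and GALNT2, had less mRNA in laying hens, and only GALNT2 passed the adjusted test. GALNT2, known in human and mouse for glycosylating lipid-handling plasma proteins, lies on chromosome 3 (39542263 to 39630276 in galGal4, ENSGALG00000011106). Its FPKM was 4.66, 5.24 and 8.63 in laying hens 1, 2 and 3, against 16.0, 32.0 and 34.3 in juvenile hens 1, 2 and 3. All 3 laying hens lay well below the lowest juvenile hen, L20 hen 1, and the groups did not overlap. The mean was 6.18 ± 2.15 FPKM in laying and 27.5 ± 9.95 FPKM in juvenile hens (SD, n = 3 each), a ratio of 0.225. On the log2 scale it fell by 1.96 (standard error 0.34, adjusted p = 0.0424 by limma). The value rested on 213 to 404 reads per laying hen and 969 to 2441 reads per juvenile hen. The log2 fold change stayed between -2.29 and -1.76 with each hen left out in turn, but the adjusted p by limma then ranged from 0.0248 to 0.150. It was above 0.05 without L20 hen 2 (0.120), L20 hen 3 (0.150), L30 hen 1 (0.106) or L30 hen 2 (0.132). With all hens it was 0.0615 with no filter on low values and 0.0625 with the replicate number as a block.

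GALNT1, a broadly expressed enzyme of the same step, lies on chromosome 2 (83818018 to 83892233, ENSGALG00000013135) and had the highest mean of the family. Its FPKM was 18.4, 22.0 and 24.1 in the laying hens, against 34.0, 85.7 and 44.4 in the juvenile hens. Every laying hen lay below every juvenile hen, and the juvenile group was spread widely by hen 2. The log2 fold change was -1.21 (standard error 0.34), a DE gene by the unadjusted p of 0.0108 that did not pass the adjusted test (adjusted p = 0.105 by limma). Without L20 hen 2 the log2 fold change was -0.83 (adjusted p = 0.128 by limma).

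Of the 4 other members of the first step that were tested, GALNT11 and GALNT10 had higher and GALNT12 and GALNT7 lower means in laying hens. GALNT11 had 10.4, 8.29 and 7.65 FPKM in laying hens, against 4.83, 8.01 and 7.42 FPKM in juvenile hens, and the groups overlapped. GALNT10 averaged 3.61 FPKM in laying and 1.92 FPKM in juvenile hens, and L30 hen 1 alone, at 6.58 FPKM, stood apart from the other hens. GALNT12 averaged 3.82 FPKM in laying and 4.23 FPKM in juvenile hens, and GALNT7 averaged 2.28 FPKM in laying and 2.75 FPKM in juvenile hens. None of these 4 was a DE gene. Over the 17 genes of the first step, GALNT2 made up 12.7 ± 3.78% of the summed FPKM in laying and 27.2 ± 5.97% in juvenile hens, GALNT1 44.8 ± 6.01% in laying and 52.5 ± 9.14% in juvenile hens, and GALNT11 18.3 ± 3.20% in laying and 6.82 ± 0.866% in juvenile hens (SD, n = 3 each). The summed FPKM of the step was 48.5, 44.8 and 50.9 in laying hens, against 66.3, 137.6 and 100.9 in juvenile hens. Without GALNT1 and GALNT2, taken out after their values were seen, the sum was 25.4, 17.6 and 18.2 FPKM in laying hens. In juvenile hens it was 16.3, 20.0 and 22.1 FPKM, and the groups overlapped.

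**Figure D2:**
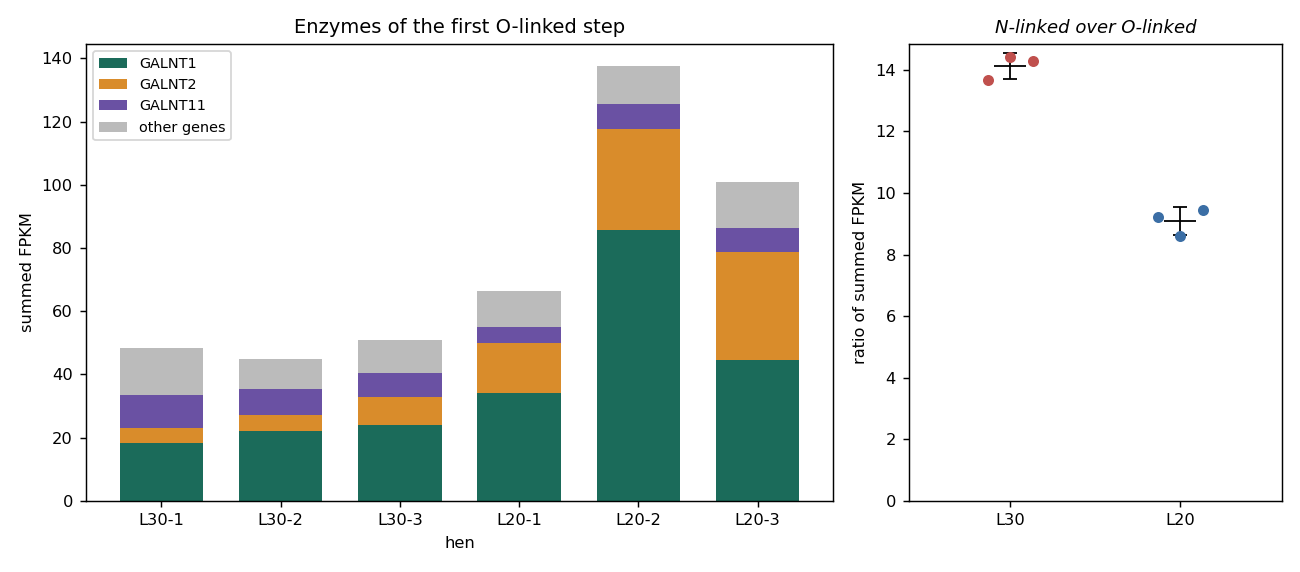
Left, summed FPKM (y axis, from 0) of the 17 enzymes of the first O-linked step in each hen, divided into GALNT1, GALNT2, GALNT11 and the other genes. Right, summed FPKM of the N-linked enzymes over that of the O-linked enzymes in each hen, with the mean and SD. The bars of the 3 laying hens reach 44.8 to 50.9 and those of the juvenile hens 66.3 to 137.6, while the ratio lies between 13.7 and 14.4 in laying and between 8.59 and 9.45 in juvenile hens.

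The other 11 genes of the first step were below a mean of 1 FPKM and were not tested. GALNTL1 (chromosome 5, 27313855 to 27374224) had the widest gap among them, with 0.252, 0.129 and 0.213 FPKM in laying hens, against 1.59, 0.491 and 1.83 FPKM in juvenile hens. It rested on 35, 10 and 19 reads in the laying hens and on 182, 70 and 225 reads in the juvenile hens. GALNT6 had 0.282, 0.125 and 0.145 FPKM in laying hens, against 0.517, 0.655 and 0.494 FPKM in juvenile hens, on 6 to 24 reads per laying hen and 35 to 55 reads per juvenile hen. WBSCR17, a member of the same family by sequence, had 0.400, 0.102 and 0.223 FPKM in laying hens, against 0.450, 0.433 and 0.722 FPKM in juvenile hens. In all 3 genes every laying hen lay below every juvenile hen, and their levels were low in both groups. Among all genes tested, a set without these 3, 16.0% had laying hens below without overlap. No share over the genes below the filter was computed. With no filter on low values, limma over 14078 genes gave adjusted p of 0.127 for GALNTL1, 0.0653 for GALNT6 and 0.221 for WBSCR17. From these same hens the study had listed GALNT1, GALNT2, GALNT6, WBSCR17, GALNTL1 and ST6GALNAC1 under O-glycan biosynthesis. It called them significant by Cuffdiff, while the pathway itself missed the study's enrichment threshold. Of these genes only GALNT1 and GALNT2 were above the filter and tested here, and GALNT2 passed the adjusted test. With no filter, where all of these genes were tested, none passed (GALNT2 adjusted p = 0.0615 by limma). Since the hens are the same, the direction of these genes is not independent evidence. The remaining members, GALNT3, GALNT5, GALNT9, GALNT13, GALNT14, GALNTL2, GALNTL4 and GALNTL6, were at most 0.995 FPKM in any hen.

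Of the 4 later O-linked enzymes on the list, only ST6GALNAC2 and ST6GALNAC4 passed the filter. Neither was a DE gene, against 22.7% of all genes tested, which does not show that their levels were equal. ST6GALNAC2, which adds sialic acid to the GalNAc of O-linked glycans, was the most abundant of the 4. It had 7.98, 14.9 and 11.97 FPKM in laying hens, against 15.6, 5.95 and 7.38 FPKM in juvenile hens. The groups overlapped, with L20 hen 1 the highest (log2 fold change 0.31, standard error 0.37, adjusted p = 0.658 by limma). The log2 fold change was 0.056 without L20 hen 2 and 0.68 without L20 hen 1. ST6GALNAC1, its neighbour on chromosome 18 (4268715 to 4280192, with ST6GALNAC2 at 4283803 to 4289327), had 2.25, 0.783 and 0.529 FPKM in laying hens, against 0.783, 0.281 and 0.594 FPKM in juvenile hens. A single laying hen set its higher mean, and the other laying hens lay within the juvenile range. ST6GALNAC4 averaged 3.35 FPKM in laying and 2.92 FPKM in juvenile hens, and ST3GAL1 averaged 0.755 FPKM in laying and 0.702 FPKM in juvenile hens.

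**Figure D3:**
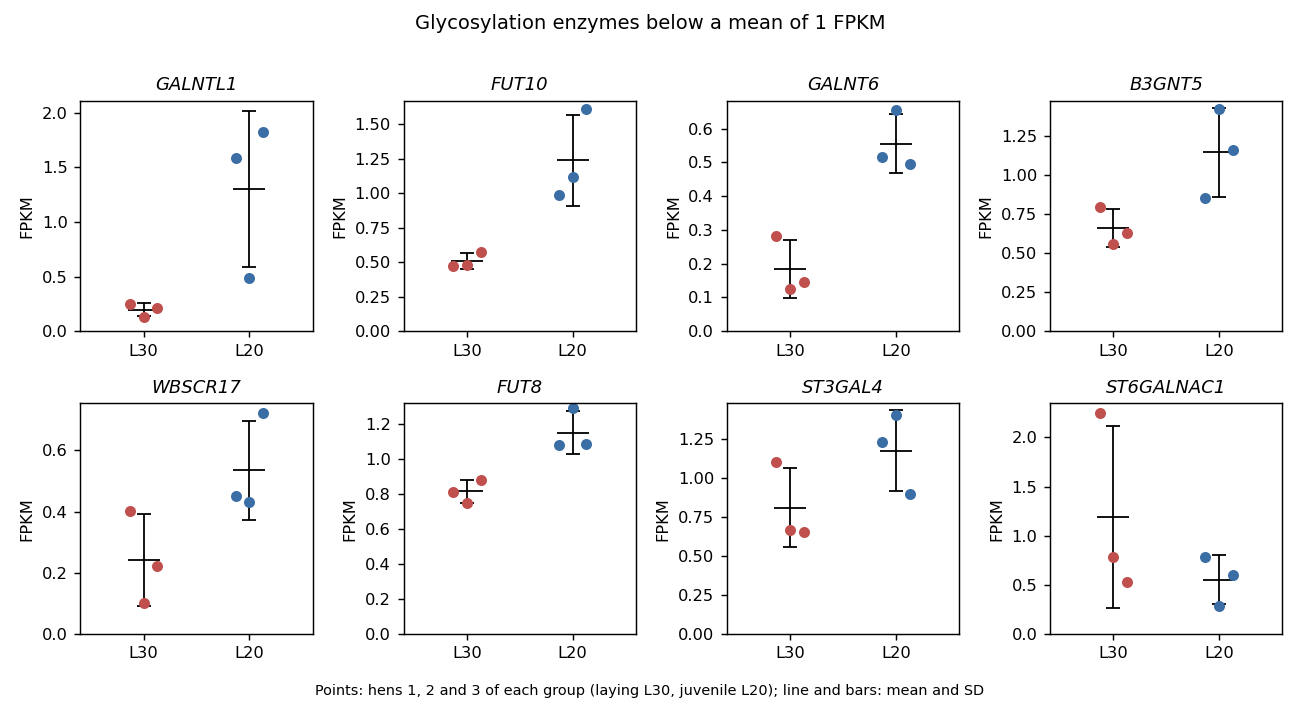
FPKM (y axis, from 0, 1 scale per gene) of 8 enzymes below a mean of 1 FPKM, by hen, with the mean and SD of each group. The 8 were picked by hand from the 27 enzymes below the filter, so they do not stand for that set. GALNTL1, GALNT6, WBSCR17, FUT10, B3GNT5 and FUT8 have every laying hen below every juvenile hen, as do FUT4 and GALNTL2, not shown. Among all genes tested, a set without these genes, 16.0% had laying hens below without overlap. No share over the genes below the filter was computed. In ST6GALNAC1 a single laying hen at 2.25 FPKM stands above the other 5 hens.

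No N-linked enzyme passed the adjusted test. Of the 24 tested, 1 was a DE gene (MGAT5), which is 4.17%, against 22.7% of all genes tested. The median log2 fold change was -0.15 over these 24 genes and 0.01 over the 8 O-linked genes tested. That comparison leaves out 13 of the 21 O-linked genes, which fell below the filter, and the difference between the 2 medians was not tested. In summed FPKM, N-linked enzymes came to 853, 949 and 953 in laying hens, against 803, 1267 and 1055 in juvenile hens, with overlap. O-linked enzymes came to 62.5, 65.7 and 66.7 FPKM in laying hens, against 87.2, 147.5 and 111.6 FPKM in juvenile hens, without overlap. The ratio of the sums was 14.1 ± 0.415 in laying and 9.09 ± 0.446 in juvenile hens (SD, n = 3 each), and it does not depend on how the libraries were scaled. Without GALNT1 and GALNT2 it was 21.6, 24.6 and 28.1 in laying hens, against 21.6, 42.4 and 32.1 in juvenile hens, with overlap. This pair was taken out after its lower values in laying hens were seen, so the loss of the separation describes the sums and is no test.

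The lipid-linked precursor enzymes overlapped in summed FPKM, at 112 to 134 in laying and 102 to 167 in juvenile hens. None of the 11 ALG genes tested was a DE gene, against 22.7% of all genes tested, which does not show that their levels were equal. Their log2 fold changes lay between -0.32 and 0.04 with a median of -0.11. ALG12, a mannosyltransferase of the endoplasmic reticulum lumen, was the most abundant, with 45.7, 43.1 and 50.9 FPKM in laying hens, against 31.2, 81.1 and 52.6 FPKM in juvenile hens. The juvenile hens spanned the laying hens on both sides (log2 fold change -0.14, standard error 0.33, adjusted p = 0.835 by limma), and the sign turned to 0.19 without L20 hen 2. ALG3, which adds the first mannose on the luminal side, was chosen after its values were seen as the only ALG gene tested without overlap, with means of 5.47 FPKM in laying and 7.13 FPKM in juvenile hens. It overlaps an unnamed gene with which it may share reads. ALG13, which works with ALG14 on the second sugar of the precursor, was listed at 0.0827 to 0.217 FPKM over the 6 hens, against 3.70 to 11.7 FPKM for ALG14.

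The OST subunits were among the most abundant glycosylation mRNAs, with means over the 6 hens from 57.4 to 158 FPKM. None was a DE gene, against 22.7% of all genes tested. RPN1, which brings substrates to the catalytic subunit, had 151, 156 and 135 FPKM in laying hens, against 118, 164 and 142 FPKM in juvenile hens (log2 fold change 0.07, standard error 0.17). DAD1, a small structural subunit, had 140, 177 and 163 FPKM in laying hens, against 128, 178 and 164 FPKM in juvenile hens (0.04, standard error 0.19). For both, the groups covered nearly the same range. Without L20 hen 2 the log2 fold change was 0.18 for RPN1 and 0.14 for DAD1.

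RPN2 had 85.8, 86.1 and 96.9 FPKM in laying hens, against 83.3, 150 and 128 FPKM in juvenile hens (log2 fold change -0.38, standard error 0.24, adjusted p = 0.382 by limma). OSTC, an accessory subunit of the complex that holds STT3A, had 64.1, 77.5 and 84.1 FPKM in laying hens, against 63.9, 158 and 119 FPKM in juvenile hens (-0.50, standard error 0.34, adjusted p = 0.422 by limma). In both genes L20 hen 1 lay below all laying hens while L20 hens 2 and 3 lay above them. The log2 fold change of RPN2 was -0.21 without L20 hen 2 and -0.63 without L20 hen 1, and that of OSTC was -0.22 without L20 hen 2 and -0.87 without L20 hen 1. DDOST had 87.0, 80.6 and 92.3 FPKM in laying hens, against 82.1, 108 and 104 FPKM in juvenile hens (-0.17, standard error 0.16), with -0.093 without L20 hen 2 and -0.29 without L20 hen 1.

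The catalytic subunit exists as STT3A, which acts while the protein enters the endoplasmic reticulum, and STT3B, which can act afterwards. STT3A had 49.9, 47.3 and 57.2 FPKM in laying hens, against 51.5, 76.4 and 66.7 FPKM in juvenile hens (log2 fold change -0.31, standard error 0.18, adjusted p = 0.363 by limma). STT3B had 54.7, 56.5 and 64.8 FPKM in laying hens, against 46.5, 70.3 and 51.3 FPKM in juvenile hens (0.08, standard error 0.19, adjusted p = 0.822 by limma). Neither subunit passed the test. Without L20 hen 2 the log2 fold change was -0.19 for STT3A and 0.25 for STT3B. The ratio of STT3A to STT3B was 0.912, 0.837 and 0.883 in laying hens, against 1.11, 1.09 and 1.30 in juvenile hens. In FPKM, STT3B was thus the higher of the pair in each laying hen and STT3A in each juvenile hen. Which of the pair is higher also depends on the gene lengths used for FPKM. In estimated reads STT3B was above STT3A in juvenile hens too, with 2920, 5592 and 3591 reads against 2244, 3947 and 2945. The FPKM ratio does not depend on the scaling of the libraries, but it was singled out after its values were seen and is given without a test.

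**Figure D4:**
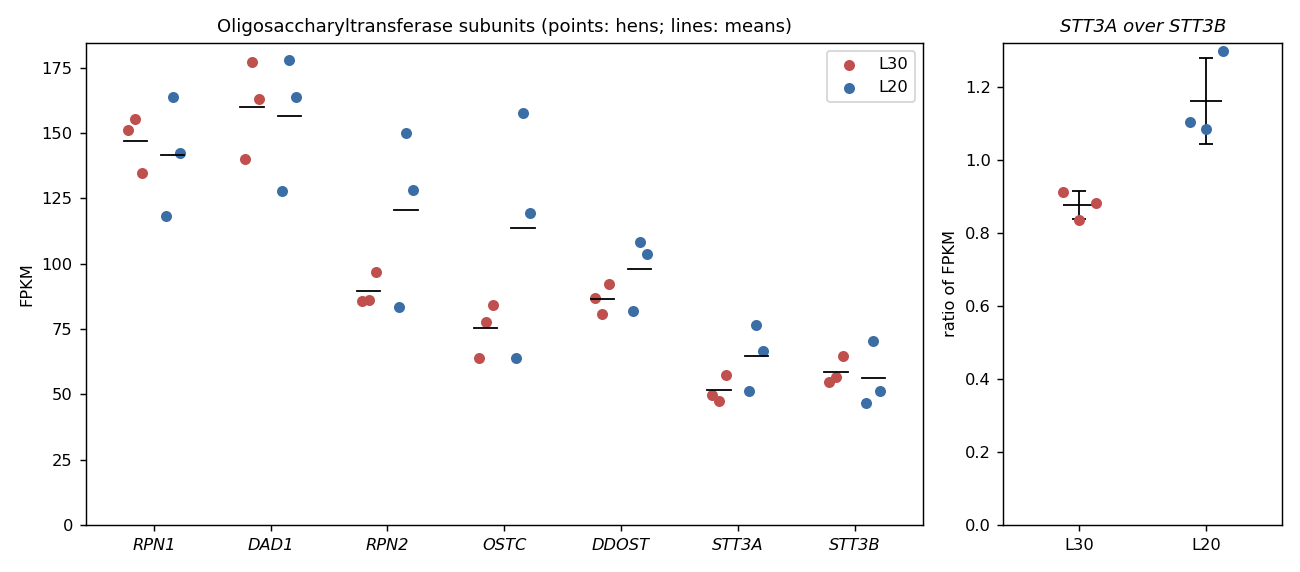
Left, FPKM (y axis, from 0) of the 7 OST subunits in each hen, with lines at the group means. Right, the FPKM of STT3A over that of STT3B in each hen, with the mean and SD. The groups overlap for every subunit, while the ratio lies between 0.837 and 0.912 in laying and between 1.09 and 1.30 in juvenile hens.

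Among the Golgi enzymes of N-linked glycans, MGAT5 (chromosome 7, 29769773 to 29831929), which starts the outer branch that can carry long lactosamine chains, was the DE gene. Its FPKM was 3.90, 3.37 and 5.61 in laying hens, against 8.72, 11.5 and 7.35 in juvenile hens, without overlap. The log2 fold change of -0.95 (standard error 0.21) had a p of 0.00395 before and 0.0697 after adjustment in limma, and it stayed between -1.12 and -0.79 with each hen left out. Its adjusted p by limma was 0.0465 without L30 hen 3 and between 0.133 and 0.191 without any other hen. With the replicate number as a block it was 0.180 by limma. The other branching enzymes were not DE genes. MGAT4B, which adds another branch, had 42.9, 51.1 and 52.5 FPKM in laying hens, against 39.3, 35.6 and 42.5 FPKM in juvenile hens. MGAT3, which adds the bisecting sugar, averaged 2.78 FPKM in laying and 4.52 FPKM in juvenile hens. MGAT4A averaged 2.53 FPKM in laying and 2.96 FPKM in juvenile hens, and the MGAT4C gene tested averaged 1.03 FPKM in laying and 1.10 FPKM in juvenile hens. This MGAT4C gene overlaps TMEM9, with which it may share reads, and the other MGAT4C gene ID was at most 0.0748 FPKM in any hen. FUT8, the core fucosyltransferase, averaged 0.816 FPKM in laying and 1.15 FPKM in juvenile hens and was below the filter. The groups overlapped for MGAT4A and MGAT4C and did not for MGAT4B (laying hens above), MGAT3 and FUT8 (laying hens below). Of all genes tested, which do not include FUT8, 30.0% were without overlap. ST6GAL1, which caps N-linked glycans of plasma proteins with sialic acid, was the most abundant of the Golgi enzymes, with 53.8, 89.6 and 60.1 FPKM in laying hens, against 70.1, 138 and 79.1 FPKM in juvenile hens. The groups overlapped, and L20 hen 2 was again the highest (log2 fold change -0.46, standard error 0.32, adjusted p = 0.431 by limma). Without that hen the log2 fold change of ST6GAL1 was -0.17.

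B4GALT6 and B4GALT5 make lactosylceramide, the precursor of most complex glycolipids, and both had higher levels in laying hens, B4GALT6 past the adjusted test. B4GALT6 (chromosome 2, 105840569 to 105864567) had 16.1, 15.8 and 13.1 FPKM in laying hens, against 9.34, 8.33 and 6.74 FPKM in juvenile hens, on 694 to 1786 reads per hen. The lowest laying hen lay above the highest juvenile hen, and the spread within each group was small. It rose by a ratio of 1.85 (log2 fold change 0.82, standard error 0.15, adjusted p = 0.0480 by limma). With 1 hen left out the log2 fold change stayed between 0.70 and 0.91, and the adjusted p by limma was 0.0482 without L30 hen 3 and between 0.0659 and 0.156 without any other hen. It was 0.0597 by limma after upper-quartile scaling and 0.0866 after scaling to library totals. B4GALT5 had 5.27, 8.34 and 5.15 FPKM in laying hens, against 3.00, 4.58 and 3.64 FPKM in juvenile hens (log2 fold change 0.60, standard error 0.21, unadjusted p = 0.0275 and adjusted p = 0.166 by limma). Of the other 4 genes of this group tested, none was a DE gene, and their log2 fold changes lay between -0.17 and 0.14. ST3GAL5 and ST8SIA5, sialyltransferases that act on lactosylceramide and its products, averaged 5.65 and 8.57 FPKM in laying hens, against 5.05 and 9.04 FPKM in juvenile hens.

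**Figure D5:**
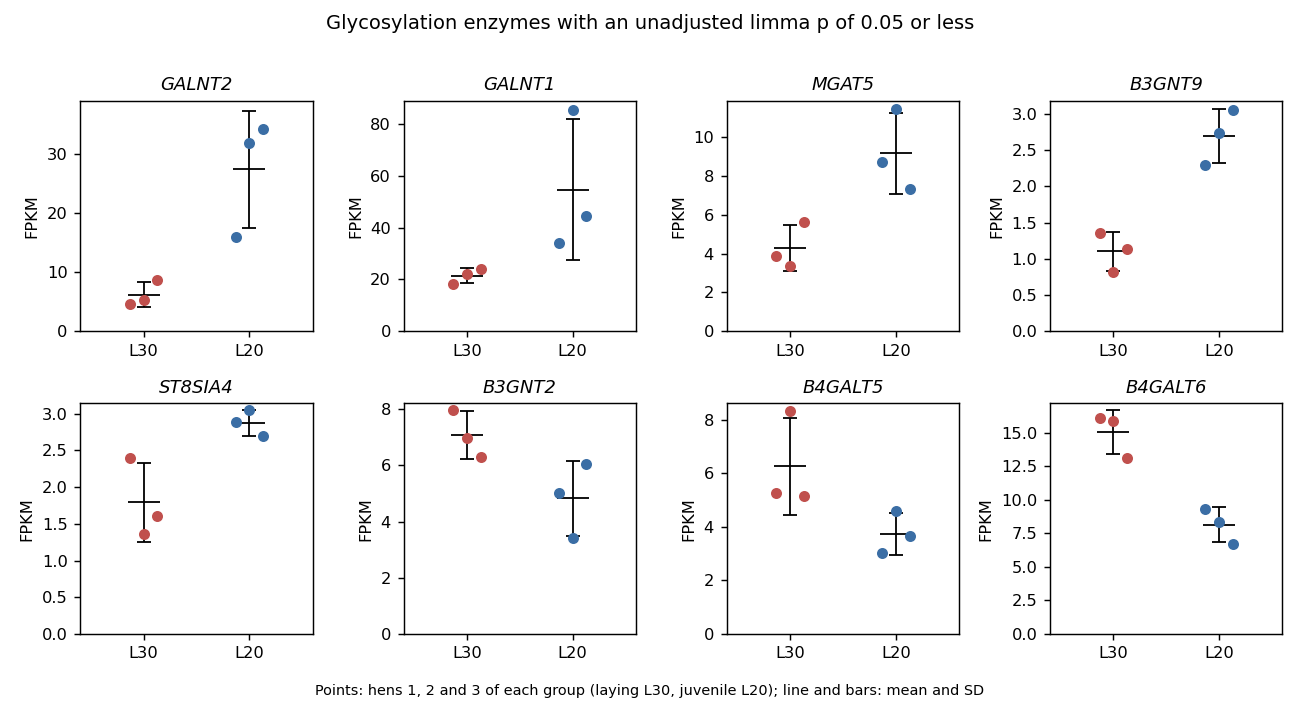
FPKM (y axis, from 0, 1 scale per gene) of the 8 glycosylation enzymes with an unadjusted limma p of 0.05 or less, by hen, with the mean and SD of each group. In every panel the 3 laying hens and the 3 juvenile hens do not overlap, from GALNT2 with 4.66 to 8.63 in laying and 16.0 to 34.3 in juvenile hens to B4GALT6 with 13.1 to 16.1 in laying and 6.74 to 9.34 in juvenile hens.

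B3GNT9 (chromosome 11, 2423733 to 2424981), a member of the N-acetylglucosaminyltransferase family, stood in the mixed group of extension and capping enzymes. It had 1.36, 0.824 and 1.13 FPKM in laying hens, against 2.30, 2.74 and 3.05 FPKM in juvenile hens. It fell to a ratio of 0.410 (log2 fold change -0.81, standard error 0.15, adjusted p = 0.0451 by limma), on 16 to 47 reads per laying hen and 65 to 96 reads per juvenile hen. The adjusted p by limma lay between 0.0678 and 0.161 when any hen was left out. B3GNT2, the main enzyme of long lactosamine chains in mammals, had 7.98, 6.99 and 6.30 FPKM in laying hens, against 5.01, 3.42 and 6.06 FPKM in juvenile hens (log2 fold change 0.49, standard error 0.19, adjusted p = 0.204 by limma). The lowest laying hen was just above the highest juvenile hen, and the log2 fold change was 0.31 without L20 hen 2.

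ST8SIA4, a polysialyltransferase also known from leukocytes, had 2.40, 1.36 and 1.61 FPKM in laying hens, against 2.89, 3.05 and 2.69 FPKM in juvenile hens (log2 fold change -0.49, standard error 0.16, adjusted p = 0.144 by limma). Markers of several non-parenchymal cell types had lower levels in the same laying hens, where 11.7% of all genes tested were DE and lower. Of these markers only C1QA, CD3E and PTPRC passed the adjusted p by limma. The macrophage markers CSF1R, MARCO, C1QA and C1QB were DE and lower in 4 of 4 cases, with a summed FPKM of 170 to 236 in laying hens, against 330 to 493 in juvenile hens. Lymphocyte markers were DE and lower in 3 of the 5 tested, with a summed FPKM of 28.2 to 37.1 in laying and 47.3 to 61.3 in juvenile hens. Endothelial markers were DE and lower in 2 of 4, with 35.0 to 60.6 FPKM in laying and 68.7 to 88.7 FPKM in juvenile hens. Stellate cell and fibroblast markers were DE and lower in 2 of 4 (COL1A2 and COL3A1, while DCN was at a log2 fold change of 0.02), with 63.4 to 85.5 FPKM in laying and 78.3 to 97.9 FPKM in juvenile hens. No bile duct or red cell marker was a DE gene, with summed levels of 1.72 to 5.42 FPKM (KRT19 and SOX9) and 55.4 to 128 FPKM (HBAA and HBAD) in laying hens, against 1.68 to 3.60 FPKM and 37.5 to 154 FPKM in juvenile hens. None of these markers tested was at 0 in every hen of a group, and their part in the lower levels of GALNT2, GALNT1, MGAT5, B3GNT9 and ST8SIA4 was not tested.

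ST3GAL3, the most abundant of this mixed group and an enzyme that sialylates lactosamine ends, had 16.0, 11.1 and 21.4 FPKM in laying hens, against 6.997, 14.8 and 8.26 FPKM in juvenile hens. L20 hen 2 lay inside the laying range (log2 fold change 0.66, standard error 0.33, adjusted p = 0.293 by limma). The other 11 genes tested here were not DE genes. B3GNTL1 passed the filter only through the juvenile hens, with 0.938 FPKM in laying and 1.33 FPKM in juvenile hens on average. Among the genes below the filter, FUT10 had 0.472, 0.478 and 0.573 FPKM in laying hens, against 0.985, 1.12 and 1.61 FPKM in juvenile hens. FUT4, a fucosyltransferase of the Lewis X group on leukocytes, was listed at 0.119, 0 and 0 FPKM in laying hens, against 0.293, 0.448 and 0.310 FPKM in juvenile hens, on at most 7 reads in any hen. With no filter, 7 of the 27 enzymes below 1 FPKM had an unadjusted p of 0.05 or less (FUT4, GALNT6, FUT10, GALNTL1, FUT8, B3GNT5 and WBSCR17), against 19.8% of all 14078 genes in that fit (1242 higher and 1540 lower). B3GNT5 overlaps MCF2L2, with which it may share reads. All 7 were lower in laying hens, and none passed the adjusted p by limma.

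Among 58 further gene names that supply or follow these enzymes, SRD5A3 of the dolichol list stood on 2 gene IDs. In all, 50 gene IDs were found by name and 49 were tested. None passed the adjusted p by limma. DE genes numbered 3 higher and 4 lower (14.3%, against 22.7% of all genes tested), and the median log2 fold change was -0.02. The lowest p was that of DPAGT1, which makes the first sugar link to dolichol. It had 33.5, 39.8 and 34.9 FPKM in laying hens, against 26.8, 26.4 and 26.3 FPKM in juvenile hens (log2 fold change 0.43, standard error 0.12, adjusted p = 0.110 by limma). UGGT2, of the glucosyltransferase family that marks unfolded glycoproteins, had 0.962, 0.577 and 0.965 FPKM in laying hens, against 1.19, 2.86 and 1.85 FPKM in juvenile hens (adjusted p = 0.162 by limma). It passed the filter only through the juvenile hens, so its place among the DE genes is no support for a direction of the list. MPI, which feeds mannose into nucleotide sugars, averaged 4.46 FPKM in laying and 6.17 FPKM in juvenile hens (adjusted p = 0.171 by limma). By group, the dolichol and carrier genes gave 1 DE gene higher and 1 lower of 10 gene IDs tested, and the trimming genes 1 lower of 11. Nucleotide sugar genes gave 2 higher and 2 lower of 21, and the further OST subunits and the O-linked core enzymes none of 3 and none of 4. The lower dolichol gene was 1 of the 2 gene IDs of SRD5A3 (unadjusted p = 0.0423 by limma), and the other was not a DE gene (unadjusted p = 0.394 by limma).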

How the data were processed

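RNA-Seq was made from total liver RNA of 6 hens. After read cleaning, the authors used TopHat2 2.0.9 against galGal4 and deposited FPKM per gene from Cufflinks. The authors also deposited a read count per gene divided by a factor per library, a scaled signal used here only for depth. Taking the commonest lowest value as 1 read, at least 99.890% of low values were whole (within 0.02 reads), but 3 libraries hold 1 or 2 values below it, so no count test was run. The deposited FPKM stood in nearly the same relation to the scaled counts in every hen (0.993 to 1.02 relative to L20 hen 1), so they were not scaled to each library's own total. Reads were counted per gene, so overlapping genes may share them.

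limma 3.58.1 (R 4.3.3, trend in eBayes) was run over all genes, with Python 3.11.15, pandas 2.3.3 and scipy 1.17.1 for tables and exact permutation tests. limma was also run on simulated data with the same spread in every gene. That setting is unlike these data, so the run is no check on the calls reported. Members and lists were chosen with earlier results of these data known. Named genes were the DE enzymes, the 7 OST subunits, 6 O-linked genes that the study lists, the most abundant gene of each list, and the 3 lowest p of the pathway lists. Others were to be named with their levels only. Some, such as FUT4, FUT8, FUT10, B3GNT5, ALG3, MGAT3 and MGAT4B, are also named for a p or a lack of overlap, after their values were seen. Alternatives changed the pseudocount, filter, scaling and block or left out a hen. p-values measure the spread between hens, 1 library each.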

Additional observations from a re-analysis of the deposited data

How the results depend on the processing

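Pseudocount 0.1 and median-ratio scaling kept all 8 DE enzymes and the same 3 called at the adjusted p of 0.05 by limma. DE enzymes higher and lower in laying hens, 3 and 5 as reported, numbered 1 and 3 with a mean of at least 5 FPKM, where only 30 enzymes were tested and B3GNT9, ST8SIA4, UGGT2 and B4GALT5 had no value, 3 and 12 with no filter, and 2 and 9 after upper-quartile scaling. Scaling to library totals, chosen after the data were seen, moved the median of all genes to -0.26 and gave 1 and 18. It took GALNT1 (adjusted p = 0.0420 by limma) and MGAT5 (0.0378) past the threshold. Over all genes that scaling gave 507 higher and 2817 lower DE genes, and upper-quartile scaling 858 and 1511, against 1070 and 1143. Enzymes called at the adjusted p numbered 0 with no filter (15 at an unadjusted p of 0.05 or less) and 0 with the replicate block (9), against 3. Calls over all genes fell too, to 201 of 14078 with no filter and 54 of 9732 with the block, against 331 of 9732. With a hen left out, the counts ranged from 2 to 3 higher, 4 to 9 lower and 0 to 3 called. The calls numbered 0 without L20 hen 2, L20 hen 3, L30 hen 1 or L30 hen 2, and 1 without L20 hen 1. Over all genes the calls in these fits numbered 93, 64, 126, 67 and 181 in that order, against 331 with all hens. The loss of calls is therefore not particular to the enzymes.

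The N-linked median was -0.38 after library-total scaling. The O-linked median was -0.20 there, -0.45 with a mean of at least 5 FPKM, and between -0.10 and 0.12 with a hen left out, so its sign was not stable. GALNT2, MGAT5, GALNT1 and B4GALT6 kept their direction in each alternative. Their groups did not overlap, so leaving out a hen could not turn the sign. ST6GALNAC2 and OSTC, which were not DE genes, also kept their direction in each alternative. Signs turned for DAD1 (-0.034 after upper-quartile and -0.23 after library-total scaling), RPN1 (-0.0077 and -0.20) and STT3B (-0.18 after library-total scaling). With a hen left out they ranged from -0.10 to 0.14 for DAD1, -0.056 to 0.18 for RPN1, -0.038 to 0.25 for STT3B and -0.48 to 0.19 for ALG12. The causes were not tested.

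The labels do not pair hens of the same number, and their deviations from the group means correlated at 0.02, 0.01 and 0.09, so the block is given only as an alternative. The planned edgeR and DESeq2 tests were not run, since the scaled counts held values below 1 read.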

Other observations

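Of the 80 glycosylation enzymes, 72 had a value above 0 in all 6 hens. GALNTL6, a GALNT family member, and ST8SIA6, a sialyltransferase, were listed at 0 in the 3 juvenile hens, and B3GALT4, a galactosyltransferase of gangliosides, was listed at 0 in the 3 laying hens. In summed FPKM the 10 enzymes of glycolipids and the proteoglycan linker came to 39.6 ± 4.26 in laying and 31.3 ± 1.77 in juvenile hens (SD, n = 3 each). These sums include B4GALT6, with means of 15.0 in laying and 8.14 in juvenile hens, and B4GALT5, with 6.25 and 3.74. Of the 6 genes of this group tested, 3 had a positive and 3 a negative log2 fold change, so the sums do not describe a rise of the whole group. The ratio of B4GALT6 to B4GALT5 was 2.50 ± 0.582 in laying and 2.26 ± 0.737 in juvenile hens, and that of MGAT4B to MGAT5 was 11.8 ± 2.99 in laying and 4.47 ± 1.34 in juvenile hens. Every laying hen was above the juvenile hens in MGAT4B and below them in MGAT5. The separation of that ratio follows from these values and is no separate result.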
